A study of Mus musculus with 16 samples.

Results

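The 10 genes described here encode transcription factors that govern fat cell formation and fuel use: the nuclear receptors Pparg, Ppara, Ppard and Rxra, the CCAAT/enhancer-binding proteins Cebpa, Cebpb and Cebpd, the estrogen-related receptors Esrra and Esrrg, and the Krüppel-like factor Klf15. They were picked by name out of the 22911 genes that the arrays identify by a RefSeq transcript, and each was read from its brightest probe. RNA came from interscapular brown adipose tissue (BAT) and gonadal white adipose tissue (gWAT) of male C57BL/6NCrSlc mice on normal chow, and was hybridized to 1-colour Agilent arrays, 4 for each depot and genotype. Adipo-Pgam1 KO mice carried Pgam1 flox/flox alleles and a Cre recombinase driven by the adiponectin promoter, which is active chiefly in adipocytes among the cells of a fat pad, and the glycolytic enzyme phosphoglycerate mutase 1 was its target. Littermate controls were labelled wild-type, and by the paper's methods they carried the Pgam1 flox/flox alleles without the Cre recombinase. All mice were 16 weeks old except for the Adipo-Pgam1 KO sample numbered 4 of each depot, taken at 14 weeks.

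PPARs bind DNA as heterodimers with RXR and are switched on by fatty acids and their derivatives. PPARγ and C/EBPα drive one another's expression in the differentiating adipocyte after C/EBPβ and C/EBPδ have started the programme, and PPARα, ERRα and ERRγ work with PGC-1 coactivators on genes of fatty acid oxidation and mitochondria, which are plentiful in brown fat. KLF15 is a factor of amino acid and glucose handling that is induced by glucocorticoids and fasting.

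Levels are log2 signals over the 75th percentile of the same array, so that 0 stands for that percentile and 1 unit for a 2-fold step, and they were compared between groups for a given probe but never between probes. The 75th percentile itself lay between 401 and 916 intensity units, and the share of probes well above background ran from 50% to 62.2%. In BAT the percentile was 401 to 451 in controls and 650 to 916 in Adipo-Pgam1 KO mice, without overlap. In gWAT it was 570 to 855 in controls and 657 to 831 in the arrays labelled Adipo-Pgam1 KO. All 10 genes were well above background on all 16 arrays, and no spot was saturated. Pgam1 itself fell in BAT by 1.74 on the log2 scale (standard error 0.11, limma adjusted p = 1.11e-05), but in gWAT its signal was 5.07 to 5.67 in controls and 5.95 to 6.50 in the arrays labelled Adipo-Pgam1 KO, 0.95 higher on average (standard error 0.19, adjusted p = 0.0139). Whether either Pgam1 probe lies in the floxed sequence is not known. The gWAT arrays are therefore called by their label, and every direction in gWAT rests on it. Slide 1 held 3 BAT controls, slide 2 held the other BAT control, all 4 BAT arrays of Adipo-Pgam1 KO mice and 3 gWAT controls, and slide 3 held the other gWAT control and all 4 gWAT arrays labelled Adipo-Pgam1 KO.

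**Figure D1:**
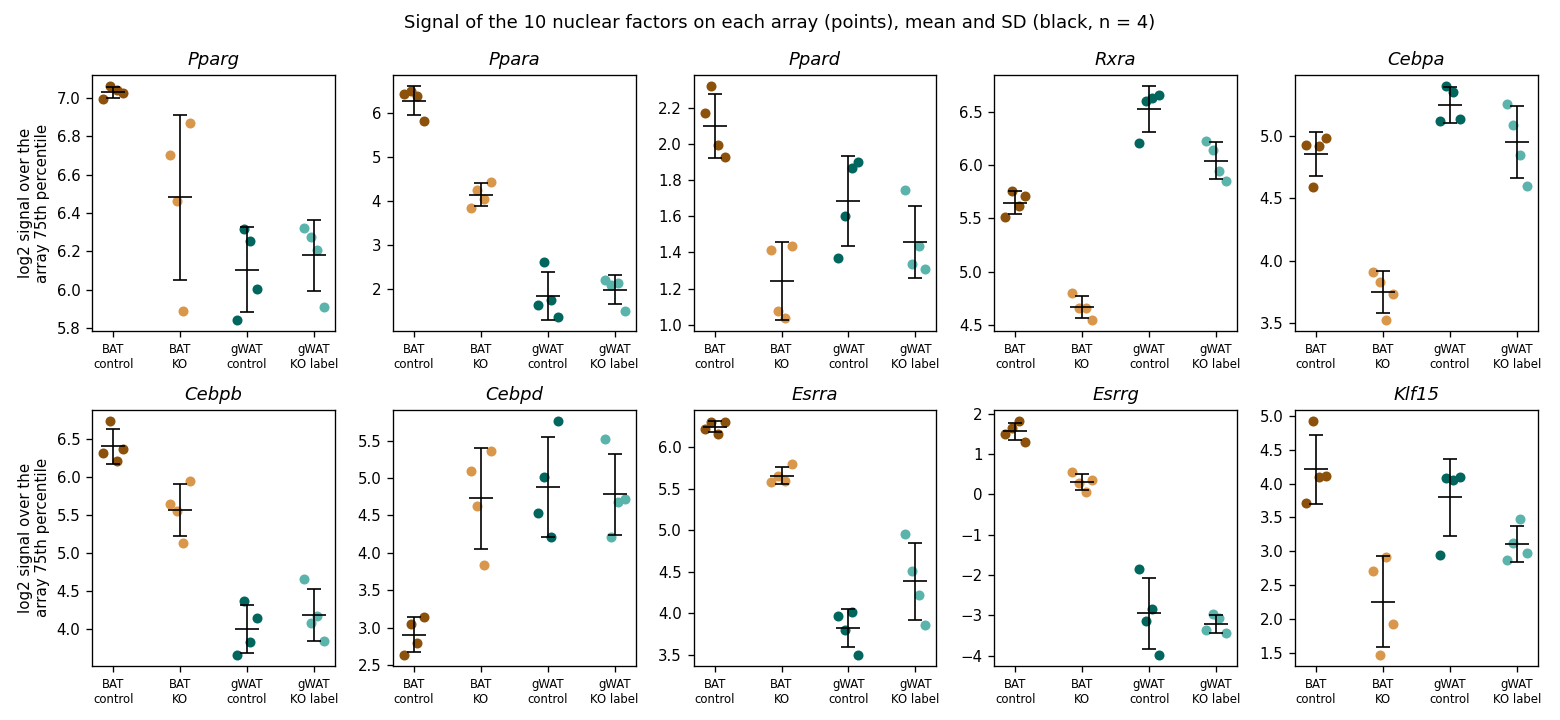
Log2 signal over the array's 75th percentile (vertical axis, a separate scale in each panel) of the 10 genes on the 16 arrays. Points are arrays, black bars the mean and SD of 4 arrays, and the groups are BAT control, BAT of Adipo-Pgam1 KO mice, gWAT control and gWAT labelled Adipo-Pgam1 KO. In BAT the points of both genotypes are apart in all 10 panels, with Cebpd the one that is higher in Adipo-Pgam1 KO mice, whereas in gWAT they overlap in all 10.

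In BAT, 9 of the 10 factors had a lower signal in Adipo-Pgam1 KO mice and Cebpd had a higher one. All 10 passed an adjusted p of 0.05 in limma, a linear model fitted to all 14280 genes tested, and in none did the 4 arrays of one genotype overlap those of the other. The background was high: 61.5% of all genes tested passed the same threshold, 34.0% as lower and 27.5% as higher, and 57.1% did not overlap. The median log2 change of the 10 genes was -0.92, against -0.08 for all genes tested. Ppara, Klf15, Esrrg and Cebpa were at least 2-fold lower, as were 11.8% of all genes, and Cebpd was at least 2-fold higher, as were 14.5%. In whole tissue, fewer cells of a type and less RNA per cell cannot be told apart. Nothing in the labels says how the 4 samples of a group were drawn beyond calling them independent, and the p-values measure the spread between them.

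**Figure D2:**
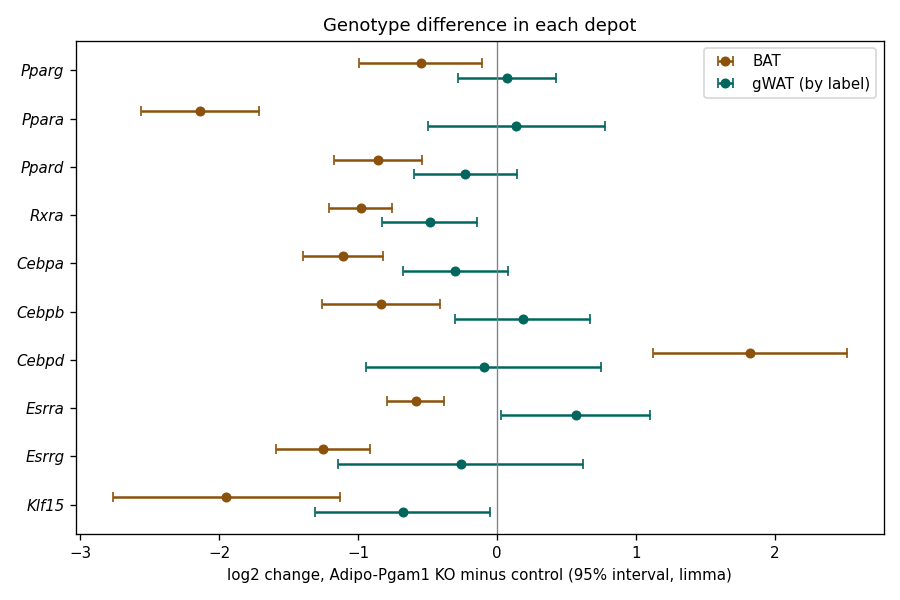
Log2 change, Adipo-Pgam1 KO minus control (horizontal axis), of each factor in BAT (brown) and gWAT (green, by label), with the 95% interval from limma and 4 arrays per group. In BAT 9 intervals lie below 0 and that of Cebpd above it, from -2.14 for Ppara to 1.82 for Cebpd, and in gWAT the changes lie between -0.68 and 0.57.

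Among the PPARs, Ppara, the receptor that governs fatty acid oxidation, moved most. Its log2 signal was 6.44, 6.51, 6.39 and 5.81 on the BAT control arrays and 3.84, 4.26, 4.05 and 4.44 on those of Adipo-Pgam1 KO mice. The lowest control array, replicate 4, was the one that shared a slide with the Adipo-Pgam1 KO arrays, and it still lay above all of them. The log2 change was -2.14 (standard error 0.19, limma adjusted p = 3.25e-05), a more than 4-fold fall. Against replicate 4 alone, which is what the slide as a block amounts to, it was -1.66 (limma adjusted p = 0.00122).

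Pparg, the master regulator of adipocyte differentiation, moved least. Its signal was 6.99, 7.06, 7.04 and 7.03 in BAT controls and 6.70, 6.46, 5.89 and 6.87 in Adipo-Pgam1 KO mice. The controls were packed within less than 0.1 log2 units, while the Adipo-Pgam1 KO arrays spread over almost 1 unit below them. The change of -0.55 (standard error 0.20) passed narrowly (limma adjusted p = 0.036). It missed the threshold with the slide as a block (-0.55, adjusted p = 0.203), normexp background correction (-0.41, adjusted p = 0.0719), quantile normalization (-0.24, adjusted p = 0.27) and spike-in scaling (-0.02, adjusted p = 0.948), and in 5 of the 8 fits that left out 1 array, where the adjusted p lay between 0.0155 and 0.0743. Those fits moved the change between -0.68 and -0.35, the latter without Adipo-Pgam1 KO replicate 3. The methods' t-test after adjustment lost the call as well. Of the 13 alternatives that kept all arrays, 8 kept it.

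Ppard, the most widely expressed PPAR, lay between 1.93 and 2.32 in BAT controls and between 1.04 and 1.44 in Adipo-Pgam1 KO mice, a change of -0.86 (standard error 0.14, limma adjusted p = 0.000732). Rxra, the partner with which PPARs bind DNA, ran from 5.51 to 5.75 in controls and from 4.55 to 4.80 in Adipo-Pgam1 KO mice. Its change of -0.98 (standard error 0.10, limma adjusted p = 6.02e-05) was 1.98-fold, and its replicates were close to one another in both genotypes.

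The 3 C/EBPs split. Cebpa, which keeps the differentiated state, stood at 4.93, 4.59, 4.92 and 4.99 in BAT controls and at 3.91, 3.83, 3.52 and 3.73 in Adipo-Pgam1 KO mice. Every array of Adipo-Pgam1 KO mice was below every control, by a change of -1.11 (standard error 0.13, limma adjusted p = 0.000116). Cebpb, an early factor of adipogenesis that also serves cAMP signalling in brown fat, ran from 6.21 to 6.73 in controls and from 5.14 to 5.95 in Adipo-Pgam1 KO mice, a change of -0.83 (standard error 0.19, limma adjusted p = 0.00436). With the slide as a block the call of Cebpb was lost (-0.79, adjusted p = 0.0695).

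Cebpd, the other early factor and a gene of the acute-phase response, went the opposite way. It stood at 2.64, 3.05, 2.79 and 3.14 in BAT controls and at 5.09, 4.62, 3.83 and 5.36 in Adipo-Pgam1 KO mice. All 4 Adipo-Pgam1 KO arrays were above the controls, replicate 3 the least. The change of 1.82 (standard error 0.31, limma adjusted p = 0.00092) was 3.54-fold, and it stayed past the threshold with the slide as a block (1.58, adjusted p = 0.0344). Of 14 macrophage and leukocyte markers, 13 also rose in BAT, with a median log2 change of 2.80, and their summed level over the 75th percentile went from between 38.2 and 58.7 to between 161 and 238. Of 12 fibroblast and preadipocyte markers, 9 rose and 1 fell, and their sum went from between 184 and 282 to between 346 and 529. On Adipo-Pgam1 KO replicates 1 to 4 the leukocyte sum was 194, 238, 220 and 161, and the fibroblast sum 346, 529, 470 and 482. The part of such cells in the rise of Cebpd was not tested.

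Both ERRs fell. Esrra, a regulator of mitochondrial and oxidative genes, lay between 6.16 and 6.30 in BAT controls and between 5.58 and 5.80 in Adipo-Pgam1 KO mice, a change of -0.59 (standard error 0.09, limma adjusted p = 0.000593) with little spread in either genotype. Esrrg, its relative in tissues of high oxidative capacity, stood at 1.5, 1.64, 1.82 and 1.30 in controls and at 0.56, 0.28, 0.05 and 0.35 in Adipo-Pgam1 KO mice. All 4 arrays of Adipo-Pgam1 KO mice were lower, by -1.25 (standard error 0.15, limma adjusted p = 0.000133). Esrrg is also a gene of skeletal muscle. The summed level of 13 skeletal muscle markers was uneven in the BAT arrays of Adipo-Pgam1 KO animals. It was 167 in replicate 1, 36.4 in replicate 3 and between 7.24 and 8.48 in the others, against 4.35 to 4.72 in controls. Replicate 1 was also the highest of the 4 for Esrrg, and replicate 3 was the lowest. The part of muscle RNA in the level of Esrrg was not tested.

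Klf15 fell next to Ppara in size and varied most among animals. It stood at 3.71, 4.92, 4.10 and 4.11 in BAT controls and at 2.71, 1.48, 2.92 and 1.93 in Adipo-Pgam1 KO mice. The highest Adipo-Pgam1 KO array lay below the lowest control. The change of -1.95 (standard error 0.36, limma adjusted p = 0.00153) was 3.86-fold, and leaving out 1 array at a time moved it between -2.17 and -1.69 with the call kept in all 8 fits.

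The promoters of the factors that fell at least 2-fold can be set beside these values, as far as RefSeq annotation of mouse build GRCm38.p6 gives a start site. The 250 bases before the start are shown for the 3 of these genes with a single annotated start, with each match to CCNCNCCC, a CACCC-type box that Krüppel-like factors can bind, in capitals on either strand. N stands for any base, so a marked stretch need not hold CACCC itself, and none of those in Ppara does.
Ppara, chr15:85735526-85735775, plus strand: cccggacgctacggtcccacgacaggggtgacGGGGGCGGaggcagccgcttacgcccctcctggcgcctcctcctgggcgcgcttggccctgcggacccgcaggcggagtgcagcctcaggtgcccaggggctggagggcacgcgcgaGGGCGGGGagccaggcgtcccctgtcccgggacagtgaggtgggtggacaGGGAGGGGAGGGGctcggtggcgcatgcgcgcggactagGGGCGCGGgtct
Cebpa, chr7:35119043-35119292, plus strand: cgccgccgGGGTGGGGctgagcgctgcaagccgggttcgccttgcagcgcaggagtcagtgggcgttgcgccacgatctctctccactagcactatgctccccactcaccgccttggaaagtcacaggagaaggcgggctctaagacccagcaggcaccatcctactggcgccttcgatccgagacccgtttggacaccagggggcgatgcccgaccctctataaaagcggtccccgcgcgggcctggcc
Klf15, chr6:90462326-90462575, plus strand: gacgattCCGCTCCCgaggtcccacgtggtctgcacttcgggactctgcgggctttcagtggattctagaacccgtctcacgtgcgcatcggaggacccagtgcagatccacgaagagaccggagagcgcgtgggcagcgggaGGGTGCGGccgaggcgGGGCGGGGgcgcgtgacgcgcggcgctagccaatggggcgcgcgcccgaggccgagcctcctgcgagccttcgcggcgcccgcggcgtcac
Of the 10 factors, 9 had 15 such windows in all, and 13 of the 15, from all 9 genes, held the CACCC-type box, as did 45.9% of all 32851 windows of that length. The GC box GGGCGG, which can share bases with it, was in 10 of the 15 and in 32.7% of all. The E box CACGTG was in the window of Klf15, at 228 and 172 bases before the start, and in 6.02% of all windows. No window of the 9 genes held the PPAR and RXR repeat of AGGTCA with 1 base between the copies, the ERR element TCAAGGTCA, the C/EBP palindrome TTGCGCAA or the cAMP response element TGACGTCA, which were in 0.033%, 0.387%, 0.164% and 1.55% of all windows. Both strands were searched, and a match is a run of letters, not a measured site.

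Partners and relatives of these factors moved less uniformly. Of 18 PPAR coregulators tested in BAT, 7 were lower and 0 higher (median -0.18), a share near the 34.0% of all genes that were lower. Ppargc1b, the PGC-1β coactivator, had the largest change at -1.94 (limma adjusted p = 0.000119), followed by the acetyltransferase Crebbp at -0.91 and Ncoa4 at -0.78. Ppargc1a, which encodes PGC-1α, changed by 0.63 (standard error 0.49, limma adjusted p = 0.286) and did not pass. Of 29 other nuclear receptors, 14 were lower (median -0.29), led by the estrogen receptor Esr1 at -1.67, the thyroid hormone receptor Thrb at -1.59 and the mineralocorticoid receptor Nr3c2 at -1.47, the last of which was measured on 3 of the 4 Adipo-Pgam1 KO arrays. Nr5a2, called as higher, was measured on 0 of 4 controls, where it was not well above background, and was at least 1.11-fold higher in Adipo-Pgam1 KO mice. Of 12 other C/EBP and KLF genes, Ddit3, a stress-induced C/EBP, rose by 2.28, Klf6 by 1.43 and Klf11 by 0.76, while Klf13, Klf9, Klf3 and Cebpg were lower, by -0.88 to -0.34. The directions of these 3 lists turned with the scale. Under spike-in scaling 3 coregulators were higher and 1 lower (median 0.36), 5 other nuclear receptors were higher and 3 lower (median 0.24), and 8 other C/EBP and KLF genes were higher and 0 lower (median 0.80). Genes named beyond the 3 largest changes of a list were chosen after their values were seen.

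Genes known to be driven by these factors were mostly lower in BAT. Of 24 adipocyte targets of PPARγ and C/EBPα, 21 were lower (median -1.15), led by the complement factor Cfd at -3.68, the glyceroneogenic enzyme Pck1 at -2.66 and the triglyceride synthase Dgat2 at -2.42, and the fatty acid carrier Fabp5 alone was higher, at 0.86. Of 25 targets of PPARα and PPARδ, 18 were lower (median -1.48), with the acyl-CoA thioesterase Acot1 at -3.91. The 5 that were higher were Fgf21, a hormone of fasting and stress, at 6.86, Creb3l3 at 2.39, Cpt1a at 1.13, Ucp3 at 1.04 and Plin2 at 0.64. Fgf21 and Creb3l3 were each measured on 1 of the 4 control arrays and on all 4 of Adipo-Pgam1 KO mice.

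Of 25 ERR targets, which are mostly mitochondrial enzymes, 24 were lower (median -1.11), among them Perm1, a muscle and brown fat regulator of mitochondria, at -1.72 and the cytochrome oxidase subunit Cox8b at -1.70. The aspartate transaminase Got1 was higher, at 1.83. Of 14 KLF15 targets, 12 were lower (median -1.47), with the proline oxidase Prodh at -2.05, and the alanine transaminase Gpt2 was higher, at 1.23. Hpd, an enzyme of tyrosine breakdown, was measured on all 4 control arrays and on 0 of 4 of Adipo-Pgam1 KO mice, where it was not well above background, and was at least 7.43-fold lower (limma adjusted p = 7.94e-05). Such a bound sets the control mean against the dimmest signal still well above background on each array. Some genes, such as Pck1 and Pdk4, stand on more than 1 list. Under spike-in scaling 16 of 24, 15 of 25, 20 of 25 and 9 of 14 genes of these target lists were still lower.

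Markers of the adipocyte itself overlap with the target lists. All 8 adipocyte markers also stand on the list of PPARγ and C/EBPα targets, so their changes are not a separate result. Of the brown and beige markers, Ucp1, Cidea and Cox8b stand on target lists as well. Of 8 adipocyte markers 7 fell in BAT (median -1.18), and their summed level went from between 2534 and 3059 in controls to between 776 and 1066. Of 10 brown and beige adipocyte markers 8 fell (median -1.25), all 10 being well above background on all BAT arrays, and their sum went from between 4414 and 4771 to between 1472 and 2401. Of 8 endothelial markers 1 fell and 0 rose, against 6 and 0 under scaling by Actb and Rplp0 and 0 and 1 under spike-in scaling. Of 5 Schwann cell markers 1, S100b, fell, and of 8 lymphocyte markers, 4 of which were tested, Cd3g alone rose, which was measured on 1 of 4 control arrays. In the fibroblast list the preadipocyte gene Dlk1 was the one that fell. Mesothelial and epididymal markers were near background in BAT, where 1 gene of each list could be tested. The part of tissue composition in the changes of the 10 factors was not tested.

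**Figure D3:**
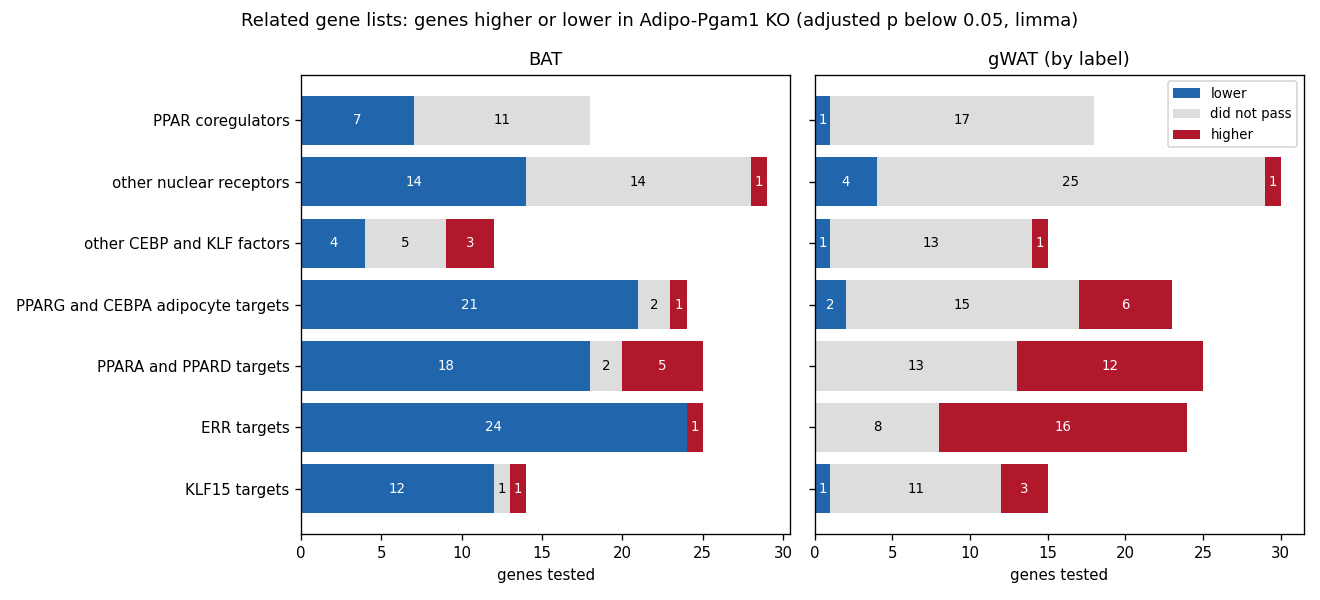
Number of genes tested in each of 7 related lists (horizontal axis) that were lower (blue), higher (red) or did not pass (grey) in Adipo-Pgam1 KO against control at an adjusted p below 0.05 in limma, in BAT and in gWAT. In BAT the target lists are mostly lower, with 24 of 25 ERR targets, and in gWAT 16 of 24 ERR targets and 12 of 25 PPARα and PPARδ targets are higher.

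In gWAT, by contrast, 0 of the 10 factors passed the threshold and in 0 were the groups apart, where 17.8% of the 14149 genes tested passed (9.99% higher and 7.85% lower) and 24.2% did not overlap. The median change of the 10 was -0.16, against 0.05 for all genes tested. At an unadjusted p of 0.05 in limma 3 factors passed, Rxra, Esrra and Klf15, and with the methods' t-test 1 did, Rxra.

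Rxra stood at 6.21, 6.60, 6.63 and 6.66 in gWAT controls and at 6.22, 6.14, 5.94 and 5.85 in the arrays labelled Adipo-Pgam1 KO. Control replicate 1 fell among the arrays labelled Adipo-Pgam1 KO, and the other 3 controls lay above them. The difference was -0.49 (95% interval -0.83 to -0.14, limma adjusted p = 0.0553), and without that control it was -0.59 and passed (adjusted p = 0.0308). Of the 8 fits that left out 1 array, this was the only 1 to pass, and the limma adjusted p of the others reached 0.139.

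Klf15 had the same odd control. It stood at 2.94, 4.08, 4.06 and 4.10 in controls and at 2.88, 3.12, 3.48 and 2.98 in the arrays labelled Adipo-Pgam1 KO, a difference of -0.68 (95% interval -1.31 to -0.05, limma adjusted p = 0.12). Without control replicate 1 it was -0.96 (adjusted p = 0.0129). Of the 8 fits that left out 1 array, again only this 1 passed, and the limma adjusted p of the others reached 0.248. Control replicate 1 also had the highest sum of epididymis and testis markers, 9.53 against 0.20 to 0.87 on the other controls. The part of this in the values of that array was not tested.

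Esrra leaned the other way. It stood at 3.96, 3.79, 4.01 and 3.50 in controls and at 4.95, 4.51, 4.22 and 3.85 in the arrays labelled Adipo-Pgam1 KO. Replicates 1 to 3 of the latter exceeded every control and replicate 4, from the 14-week-old mouse, did not. The difference was 0.57 (95% interval 0.03 to 1.1, limma adjusted p = 0.125), and without replicate 4 it was 0.74 and passed (adjusted p = 0.0392). This too was the only 1 of the 8 fits without 1 array to pass, and the limma adjusted p of the others reached 0.258. The sum of brown and beige adipocyte markers was 357, 230, 231 and 141 on the 4 arrays labelled Adipo-Pgam1 KO, against 27.9 to 66.2 in controls. Its part in the level of Esrra was not tested.

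The remaining 7 factors did not pass the test in gWAT, and their intervals are wide. For Pparg, at 5.84 to 6.32 in controls and 5.91 to 6.32 in the KO-labelled arrays, the log2 difference was 0.07 (95% interval -0.28 to 0.43). For Ppara it was 0.14 (-0.50 to 0.78) and for Ppard -0.23 (-0.60 to 0.15). For Cebpa it was -0.30 (-0.68 to 0.08), for Cebpb 0.18 (-0.30 to 0.67), for Cebpd -0.10 (-0.94 to 0.75) and for Esrrg -0.26 (-1.14 to 0.62).

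Targets of the factors changed in gWAT where the factors themselves did not pass. Of 24 ERR targets 16 were higher and 0 lower (median 0.76), with Cox8b at 1.96, Got1 at 1.65 and cytochrome c, Cycs, at 1.39. Of 25 PPARα and PPARδ targets 12 were higher and 0 lower (median 0.66), with the muscle-type carnitine palmitoyltransferase Cpt1b at 4.23, Fgf21 at 4.15, measured on 3 of 4 controls, and the lipid droplet protein Plin2 at 2.69. Of 23 adipocyte targets of PPARγ and C/EBPα 6 were higher, led by Cidea at 3.41, Elovl6 at 2.40 and Pdk4 at 2.09, and 2 lower, Retn at -0.95 and Adipoq at -0.89, with a median of -0.03, but with quantile normalization 6 were higher and 8 lower and with Actb and Rplp0 7 and 6. Of 15 KLF15 targets 3 were higher, Fabp3 at 2.81, Pdk4 and Slc25a20 at 0.75, and Prodh was lower at -1.66, while with quantile normalization 3 were higher and 5 lower. With the slide as a block, which rests on the single gWAT control of slide 3, 0 ERR targets, 3 PPARα and PPARδ targets, 1 target of PPARγ and C/EBPα and 0 KLF15 targets were higher, and 0 of any of these lists were lower.

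Few coregulators and relatives passed the test in gWAT. Of 18 coregulators Nrip1, a corepressor of oxidative genes, was lower, at -1.12 (limma adjusted p = 0.00316), and Ppargc1a changed by -0.52 (limma adjusted p = 0.365). Among 30 other nuclear receptors, those lower included Esr1 at -0.83, Nr3c2 at -0.74 and Thra at -0.52, and the liver X receptor Nr1h2 at 0.45 was higher. Of 15 other C/EBP and KLF genes Ddit3 rose by 1.64 and Klf3 changed by -0.57. Under spike-in scaling 5 of the other nuclear receptors were higher and 0 lower, and with the slide as a block 0 genes of these 3 lists passed. Among the markers, 6 of 8 brown and beige adipocyte genes tested were higher (median 2.64; 2 with the slide as a block), 2 of 14 macrophage and leukocyte markers, Trem2 and Cd68, were higher, and 2 of 8 adipocyte markers were lower. The 2 lower adipocyte markers, Retn and Adipoq, are the same genes that were counted as lower targets. The summed leukocyte level was 113 to 180 on 3 of the KO-labelled arrays and 347 on replicate 4, against 102 to 140 in controls.

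Whether the genotype difference itself differed between the depots was tested by an interaction term over all 16 arrays, which 48.3% of 14820 genes passed, 27.4% with a higher value in gWAT and 20.9% with a lower one. Of the 10 factors 7 passed with a higher value in gWAT than in BAT and 1, Cebpd, with a lower one. Among those 7 the gap was widest for Ppara, at 2.28 (standard error 0.36, limma adjusted p = 0.000173). Klf15 came next at 1.27 (standard error 0.49, adjusted p = 0.043), a call kept in 8 of the 16 fits that left out 1 array. Then came Esrra at 1.15 (standard error 0.26, adjusted p = 0.00228), the only factor whose change pointed up in gWAT by more than 0.5 while pointing down in BAT. Cebpb followed at 1.02, Cebpa at 0.81, Ppard at 0.63 and Rxra at 0.50. Cebpd differed by -1.92 (standard error 0.52, adjusted p = 0.00723). Pparg at 0.62 (adjusted p = 0.0557) and Esrrg at 0.99 (adjusted p = 0.0801) did not pass. The value of Rxra reversed to -0.15 (adjusted p = 0.408) under quantile normalization, and with the slide as a block Ppara, Cebpa, Esrra, Esrrg and Cebpd passed.

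In littermate controls the same factors set the depots apart. Of the 10, 6 were higher in BAT than in gWAT and 3 lower, and 9 were apart on all arrays, against 64.7% of 14304 genes that passed (35.4% higher and 29.3% lower in BAT) and 60.8% that did not overlap. Esrrg was 22.8-fold higher in BAT, at a log2 difference of 4.51 (standard error 0.39, limma adjusted p = 1.99e-05). On the gWAT controls it stood at -1.84, -3.13, -2.85 and -3.97, far below the array's 75th percentile, whereas all 4 BAT controls were above that percentile. Ppara was 21.8-fold higher in BAT, at 4.44 (standard error 0.28, adjusted p = 3.81e-06), with gWAT controls at 1.64, 2.62, 1.75 and 1.36. Esrra and Cebpb followed at 2.43 and 2.40, and Pparg and Ppard at 0.93 and 0.42. The differences of Cebpd, Rxra and Cebpa were -1.97, -0.88 and -0.39, lower in BAT. Klf15 did not pass, at 0.41 (95% interval -0.34 to 1.17, adjusted p = 0.297). The calls of Ppard and Cebpa were lost with the slide as a block (adjusted p = 0.316 and 0.28).

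Related lists went with the depot to differing extents. All 25 ERR targets tested were higher in BAT controls (median 2.56), as were all 10 brown and beige adipocyte markers, with Ucp1 not well above background on any gWAT control. All 6 mesothelial markers were lower in BAT, as were 13 of 14 macrophage and leukocyte markers. The other lists were mixed. Of 24 PPARα and PPARδ targets 17 were higher and 4 lower, and of 24 targets of PPARγ and C/EBPα 12 and 6. Of 15 KLF15 targets 7 were higher and 2 lower (median -0.01), and of 18 coregulators 7 and 3. Other nuclear receptors had 14 higher and 8 lower of 30, and other C/EBP and KLF genes 4 and 4 of 15. Of 8 adipocyte markers 1 was higher and 5 were lower.

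**Figure D4:**
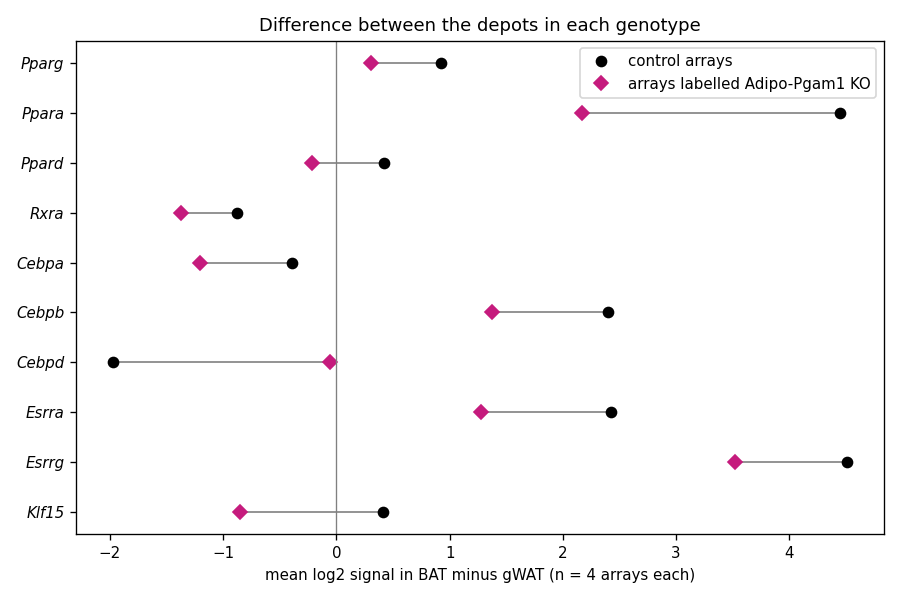
Mean log2 signal in BAT minus that in gWAT (horizontal axis) of each factor, in control arrays (black circles) and in arrays labelled Adipo-Pgam1 KO (magenta diamonds), 4 arrays per depot. The gap narrows from 4.44 to 2.17 for Ppara and from -1.97 to -0.05 for Cebpd, and widens from -0.39 to -1.20 for Cebpa.

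In the arrays labelled Adipo-Pgam1 KO the gap between the depots was smaller in size for 7 factors. Ppara was apart by 2.17 rather than 4.44, Esrrg by 3.52 rather than 4.51, Cebpb by 1.38 rather than 2.40 and Esrra by 1.27 rather than 2.43. For Cebpd the gap of -1.97 in controls was -0.05, so that BAT of Adipo-Pgam1 KO mice stood at the level of gWAT. For Rxra and Cebpa, which were lower in BAT to begin with, the gap grew, to -1.37 and -1.20, and for Klf15 and Ppard it changed sign, from 0.41 to -0.85, which is larger in size, and from 0.42 to -0.21, which is smaller. In these arrays each depot lay on a slide of its own, and depot and slide cannot be told apart.

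Ordered by group mean, Pparg, Ppara, Cebpb and Esrra ran from BAT control through BAT of Adipo-Pgam1 KO mice and gWAT labelled Adipo-Pgam1 KO to gWAT control. The last 2 groups overlapped in all 4 genes, and for Pparg the middle 2 did as well. Esrrg had the same order with the gWAT groups exchanged, and they overlapped. Rxra and Cebpa ran from gWAT control through gWAT labelled Adipo-Pgam1 KO and BAT control to BAT of Adipo-Pgam1 KO mice, in which the gWAT groups overlapped and, for Cebpa, so did gWAT labelled Adipo-Pgam1 KO and BAT control. For Cebpd the 3 groups other than BAT control overlapped, and BAT control lay below them. Klf15 and Ppard had BAT control at the top and BAT of Adipo-Pgam1 KO mice at the bottom, with overlapping neighbours except for BAT control and gWAT control of Ppard.

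For the 8 factors whose group means spanned at least 1 log2 unit, the genes with the most similar pattern were sought among 12360 genes measured on all 16 arrays, by the root mean square difference of centred log2 values. Nearest to Ppara were Ppargc1b, at 0.34 log2 units, and the adenylyl cyclase Adcy3, at 0.35. Nearest to Cebpd were Serpinb9, a granzyme inhibitor, at 0.45, and Cd14, a lipopolysaccharide co-receptor of myeloid cells, at 0.49. Nearest to Klf15 were the forkhead factor Foxo1, at 0.29, and Katnal2, at 0.37. Nearest to Esrra were Alkbh7 and Afg3l2, both of mitochondria, at 0.19 each, and nearest to Esrrg were the tau gene Mapt, at 0.50, and Rnf152, at 0.55. Rxra was closest to Epb41l1 and Ywhab, at 0.18 and 0.19, Cebpa to Pgrmc2 and Bag4, at 0.21 each, and Cebpb to Tymp and Zfp691, at 0.21 and 0.22. The 16 arrays share 4 groups, and likeness of pattern is a description.

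Dimmer second probes exist for 3 of the genes. That of Ppara changed by -1.71 in BAT and -0.14 in gWAT, and that of Esrrg, which was well above background on 11 of 16 arrays, by -1.42 in BAT. The second probe of Rxra differed by -0.71 in BAT but by 0.19 in gWAT, where the brightest one changed by -0.49, so that the probes disagreed in sign there.

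The scale of the arrays bore on all these values. When spike-in controls set the scale instead, the median change of all genes in BAT moved from -0.08 to 0.45 and the higher genes' share of all calls from 44.8% to 80.2%, and with Actb and Rplp0 they moved to -0.67 and 17.7%. In gWAT spike-in scaling moved the median from 0.05 to 0.40 and the share from 56.0% to 93.3%. In the interaction the share went from 56.7% to 83.7% with Actb and Rplp0, and between the depots from 54.8% to 41.6% with spike-ins and to 70.9% with Actb and Rplp0. In BAT the same 9 factors had a negative and Cebpd a positive change under every scaling tried. Under spike-in scaling, however, 4 of the 9 were called, Ppara, Klf15, Esrrg and Cebpa. The median of all 10 factors, Cebpd included, was then -0.39, which is still below the median of all genes.

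**Figure D5:**
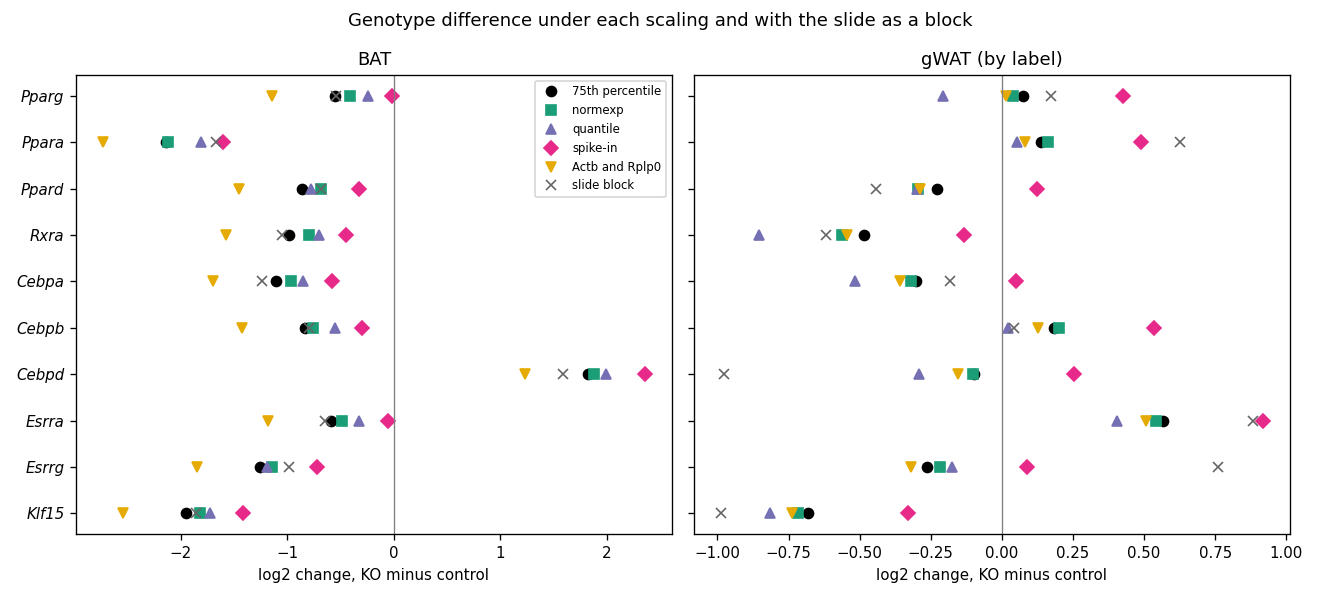
Log2 change, Adipo-Pgam1 KO minus control (horizontal axis), of each factor in BAT and in gWAT under the 75th percentile scaling, 4 other ways of processing and the slide as a block (marker shapes). In BAT every marker lies on the same side of 0 for a given factor, with Pparg at -0.02 and Esrra at -0.05 under spike-in scaling, whereas in gWAT only Rxra, Klf15, Esrra, Ppara and Cebpb keep 1 sign.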

How the data were processed

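The authors extracted total RNA, labelled it with Cy3 and hybridized it to Agilent SurePrint G3 mouse arrays, and they deposited the scanner's output from Agilent Feature Extraction 10.7.1.1 and a table of normalized values. The deposited intensity is the processed signal of each spot, with the local background already subtracted. The deposited table is on a linear scale and closely follows that intensity divided by the array's 75th percentile. This was checked over probes well above background on all arrays. The median log2 difference on an array was at most 0.00504 in size, and its SD at most 0.00288. The deposited table was used as an alternative.

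Here, irregular spots were left out, repeated spots were averaged, and the intensity was divided by the array's 75th percentile and put on the log2 scale for 56605 probes. RefSeq accessions were turned into symbols through a RefSeq gene table (91.9% of 35886 probes matched). The brightest probe stood for a gene. Testing was limited to genes that all 4 arrays of some group in the comparison measured above background. Groups were compared with limma 3.58.1 in R 4.3.3 (lmFit and eBayes), each depot alone, with Benjamini-Hochberg adjustment over all genes tested and a threshold of 0.05. Precision is limited by the number of arrays. The 10 factors, the gene lists and the tests were chosen with earlier results of these data known. Each factor is named in every comparison, with the 2 genes most like it. The rule for related lists was the 3 largest changes that passed, and further genes were named after their values were seen.

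Alternatives were normexp background correction with an offset of 50, quantile normalization, scaling by spike-ins or by Actb and Rplp0, the deposited table, no filter on dim probes, the mean of all detected probes, the slide or the replicate number as a block, the methods' t-test, all 16 arrays in 1 fit, and leaving out each array. Normexp used the median spot signal, because the files hold no mean signal. The scripts were tested on simulated data. Deposited values of other samples were not used, and there were 0 unused columns. The value of 1 gene of the related lists is not reported here.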

Additional observations from a re-analysis of the deposited data

Results flagged for a closer look

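An array stood apart from the other 3 of its group, by Dixon's criterion for 4 samples, in 4 of 40 groups of values of the 10 factors, where chance gives about 1 in 20. In BAT controls these were Ppara on replicate 4, at 5.81 with the next array at 6.39, and Cebpa on replicate 2, at 4.59 with the next at 4.92. In gWAT controls replicate 1 was the low array for both Rxra, at 6.21 with the next at 6.60, and Klf15, at 2.94 with the next at 4.06.

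The genotype difference differed between the depots by the interaction test for 8 factors. As the change in gWAT minus the change in BAT on the log2 scale, the values were 2.28 for Ppara, 0.63 for Ppard, 0.50 for Rxra, 0.81 for Cebpa, 1.02 for Cebpb, -1.92 for Cebpd, 1.15 for Esrra and 1.27 for Klf15.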

How the results depend on the processing

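Limits come first from the slides: with the slide as a block each genotype comparison rests on 1 control array, 7 factors stayed lower in BAT, the gWAT count over all genes went from 2525 to 184, and the interaction count from 7161 to 3264 with 4 factors higher. In BAT 9 factors were lower in the main analysis and 4 under spike-in scaling, and leaving out 1 array gave 8 to 9 lower, 1 higher and 7880 to 8712 genes. In gWAT, where 0 factors passed, lower factors numbered 1 with normexp, 3 with quantile normalization, 1 with Actb and Rplp0, 1 with the unadjusted t-test and 1 with all 16 arrays in 1 fit, and higher ones 2 with spike-in scaling and 1 with all 16 arrays. Leaving out 1 array gave 0 to 2 lower, 0 to 1 higher and 1143 to 3236 genes. The gWAT count over all genes was 5158 with spike-ins, 1138 without the filter, 4666 and 1612 with the t-test before and after adjustment, and 4040 with all 16 arrays. In the interaction, 7 factors higher became 2 with quantile normalization, where Rxra reversed to -0.15, and 3 with spike-ins, with 4 to 8 and 6500 to 7594 genes when 1 array was left out, 4 being without BAT control replicate 2. Between the depots leaving out 1 array gave 5 to 6 higher, 2 to 3 lower and 8428 to 9024 genes. The causes of these shifts were not tested.

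Replicate numbers are shared by all groups but did not meet the criterion for pairing, a correlation over 0.1 in every pair: deviations of same-numbered arrays correlated at 0.000383 to 0.219 between the BAT genotypes and -0.142 to 0.435 between the gWAT genotypes over 12360 genes, and at -0.0725 to 0.224 between the depots in controls and -0.185 to 0.295 in the arrays labelled Adipo-Pgam1 KO. In each of these last 2, 3 of 4 pairs exceeded 0.1, and whether a number marks 1 mouse in both depots is not stated. Of 4 arrays 2, 1, 2 and 2 correlated best with their own number. With the replicate number as a block 9 factors were lower and 1 higher in BAT among 8609 genes, 0 passed in gWAT among 1088 genes, 6 were higher in the interaction, where Ppard missed at an adjusted p of 0.0513, and 5 were higher and 2 lower between the depots.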
